A study of Mus musculus with 3 samples.

Results

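Complement is a set of blood and tissue proteins that tag particles and cells for clearance. The 9 genes described here encode components and regulators of it: the C1q chains C1qa, C1qb and C1qc, the classical pathway components C2 and C4b, the central component C3, factor B (Cfb), properdin (Cfp) and the C1 inhibitor Serping1. They were chosen by symbol as 9 of the 31053 genes in the count matrices, and every member was present in all 3 libraries. Levels were followed in mesenchymal cells, chosen by collagen content (Col1a1, Col1a2 and Col3a1 together at 1% of UMIs or more), and in macrophages, chosen by less collagen and at least 1 UMI of Csf1r or Adgre1. Mesenchymal cells were divided further by detection of Pi16, a marker of fibroblast progenitors, and of Inhba, which encodes the activin A subunit. UMIs are the barcodes that let reads copied from the same RNA molecule be counted once.

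The cells came from ectopic tissue masses of CD1 mice, an outbred strain, taken 5 days after implantation and sequenced from the 3' end in droplets. Implants held only Matrigel, a basement membrane extract that sets to a gel, or Matrigel with rhBMP2, a protein that sets off cartilage and bone formation. Mice with BMP2 implants received either pre-immune control IgG (Matrigel/rhBMP2+IgG) or an antibody that neutralizes activin A (Matrigel/rhBMP2+nAct Ab). These are called the Matrigel, IgG and antibody libraries. Each group had 1 library, so no test between groups was possible. How many animals stood behind a library, and their age and sex, the sources used here do not say. The study's title asks whether activin A promotes heterotopic ossification, the formation of bone outside the skeleton.

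In the classical pathway, C1q binds antibody or altered surfaces and activates the proteases C1r and C1s, which cleave C4 and then C2 to form an enzyme that splits C3. In the alternative pathway, C3 fragments already on a surface bind factor B, and properdin stabilizes the resulting enzyme. C1 inhibitor inactivates C1r and C1s. The liver makes most circulating complement, whereas tissue macrophages are the main source of C1q, and fibroblasts are known to produce C3, C4, factor B and C1 inhibitor.

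After filtering, 8542, 5674 and 5682 cells remained in the Matrigel, IgG and antibody libraries, from 38163880 to 46317250 UMIs before filtering. Mesenchymal cells numbered 1982, 1478 and 592 and macrophages 5564, 3115 and 3040. Mesenchymal cells were deeper in the BMP2 libraries (medians of 8752, 17191 and 19186 UMIs) than in the Matrigel library, and macrophages less so (3079, 3666 and 4835 UMIs). All 9 mesenchymal markers were detected in the mesenchymal class and all 10 macrophage markers in the macrophage class of every library. Libraries shared between 6 and 18 cell barcodes. Levels are given as CPM, the UMIs of a gene per 1000000 UMIs summed over a class, in the order Matrigel, IgG, antibody. Brackets hold exact 95% intervals, which cover counting error only and say nothing of how animals or implants vary.

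All 9 genes lie on the minus strand of GRCm38, the assembly that mm10 names. C1qb (chr4:136880129-136886187), C1qc (chr4:136889804-136893065) and C1qa (chr4:136895917-136898803) are neighbours. Cfb (chr17:34856374-34862518) and C2 (chr17:34862604-34898265) are 85 bases apart, and C4b (chr17:34728380-34743882) lies in the same part of the chromosome. C3 is at chr17:57203970-57228136, Serping1 at chr2:84765387-84775444 and Cfp at chrX:20925454-20931555. A readthrough gene, Gm20547, overlaps both C2 and Cfb on the same strand and was listed with 0 UMIs in both classes. The sources used here do not say how reads shared with it were counted, so C2 and Cfb levels are uncertain. The C4b level is uncertain too, because its near-identical copy C4a is not listed under that symbol in the count matrices. Reads of C4a may have been counted with C4b or lost. All members are read near their 3' ends, and levels are compared within a gene and not between genes.

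RefSeq promoter sequences on GRCm38.p6 were at hand for 4 of the 9 members. Those of C1qb and C1qc, 2 chains with levels that move together, and of C3, whose pattern differs from theirs, are shown 5' to 3' on the minus strand, from the 250 bases before the RefSeq transcription start. For C1qb and C1qc that start differs from the upstream gene boundary given above, which is from GENCODE. Since 151 bases of the C1qc window lie inside the gene as GENCODE gives it, only the 99 bases outside it are printed. Capitals mark GAGGAA or its reverse complement, the core bound by the myeloid factor PU.1.
C1qb (chr4:136886201-136886450, minus strand): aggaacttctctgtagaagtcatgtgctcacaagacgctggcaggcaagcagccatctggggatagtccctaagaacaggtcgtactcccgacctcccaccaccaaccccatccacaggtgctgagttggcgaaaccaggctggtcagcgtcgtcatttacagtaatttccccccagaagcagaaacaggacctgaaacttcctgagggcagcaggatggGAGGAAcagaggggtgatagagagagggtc
C1qc (chr4:136893066-136893164, minus strand): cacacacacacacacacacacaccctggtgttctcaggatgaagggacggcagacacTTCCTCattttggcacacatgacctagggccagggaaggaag
C3 (chr17:57228137-57228386, minus strand): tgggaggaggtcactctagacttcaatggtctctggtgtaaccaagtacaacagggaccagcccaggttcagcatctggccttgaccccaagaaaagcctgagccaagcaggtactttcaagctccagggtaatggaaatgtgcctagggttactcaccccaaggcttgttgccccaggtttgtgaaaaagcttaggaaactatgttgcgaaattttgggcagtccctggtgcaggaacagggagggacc
The core was present once in the C1qb and once in the C1qc window and absent from those of C3 and Cfp, against 23.3% of 32851 promoters with at least 1 match on either strand. The motifs TTCNNNGAA (GAS, 7.02% of promoters), TTGCNNCAA (C/EBP, 1.74%) and the TATA box motif TATAAA (12.4%) had no match in any of the 4 windows of 250 bases. A match of letters is a description and not a measured binding site.

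Of the 9 genes, C1qa, C1qb, C1qc and Cfp were read mainly in macrophages and Serping1 mainly in mesenchymal cells. C2, C3, C4b and Cfb were read in both classes, and Cfb was higher in macrophages in every library. In macrophages C1qa stood at 3152, 2497 and 2228 CPM, C1qb at 2862, 1969 and 1785 CPM and C1qc at 2045, 1410 and 1298 CPM. Properdin (Cfp) stood at 685, 440 and 465 CPM. In mesenchymal cells the same 4 genes lay between 5.53 and 29.6 CPM. Droplets also capture free RNA, so these low levels were set against 10 macrophage marker genes that mesenchymal cells should lack. The C1q chains in mesenchymal cells were at 0.475% to 1.04% of their macrophage level, and Cfp at 1.67%, 1.26% and 1.20%. The 10 markers ranged from 0.732% to 2.5% in the Matrigel library, from 0.383% to 1.38% in the IgG library and from 0.463% to 1.51% in the antibody library. The C1q chains and Cfp in mesenchymal cells lay inside these ranges and are read as background. For Cfp this reading is less sure. It was above the marker medians of 0.936%, 0.727% and 0.616%, and only the marker Cd68 was higher in each library. Whether mesenchymal cells have a low Cfp level of their own was not tested.

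Serping1 showed the reverse. Its mesenchymal level was 644 (633 to 656), 258 (252 to 264) and 403 (392 to 414) CPM, and its macrophage level 4.40, 3.8 and 1.13 CPM. The latter were 0.683%, 1.47% and 0.281% of the mesenchymal level, beside medians of 0.981%, 1.51% and 0.367% for 9 mesenchymal markers in macrophages. Serping1 in macrophages is read as background.

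C2, C3, C4b and Cfb were above the marker medians in macrophages of every library. C3 in macrophages was at 3.92%, 56.8% and 21.4% of its mesenchymal level, and C4b at 120%, 89.5% and 30.0%. Cfb was at 123%, 279% and 113%, and C2 at 24.6%, 26.9% and 35.7%. One mesenchymal marker, the actin-binding Gsn, also reached 10.3%, 105% and 32.7% in macrophages, the highest of the 9. The other 8 stayed at or below 2.57%. Gsn was above C3 in each library, above C4b in the IgG and antibody libraries and above C2 in the IgG library. Only Cfb was above Gsn in every library. In T cells, which should lack both genes, C3 stood at 0, 11.7 and 28.3 CPM and C4b at 0, 1.95 and 9.79 CPM, from 48, 183 and 815 cells.

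**Figure D1:**
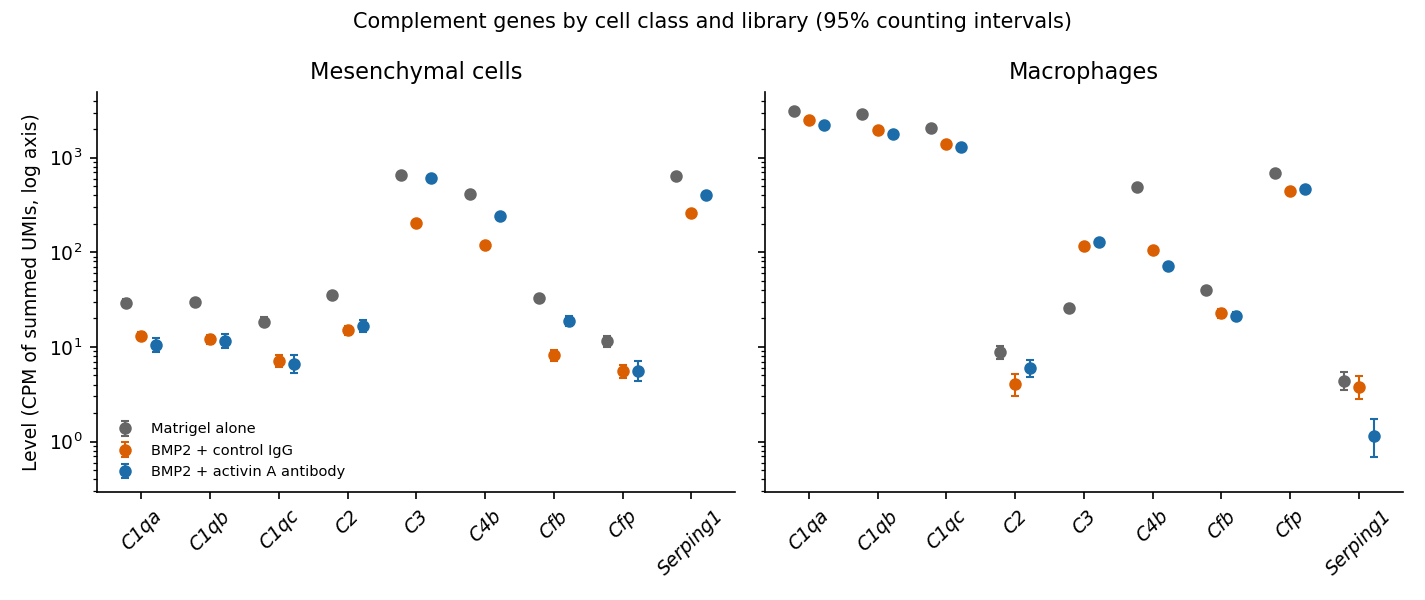
Level of each of the 9 genes (CPM, log axis) in mesenchymal cells (left) and macrophages (right), with 1 point per library and 95% counting intervals. In macrophages C3 is lowest in the Matrigel library (25.5 CPM against 116 and 130 CPM), whereas C4b is highest there (492 CPM against 106 and 72.4 CPM).

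**Figure D2:**
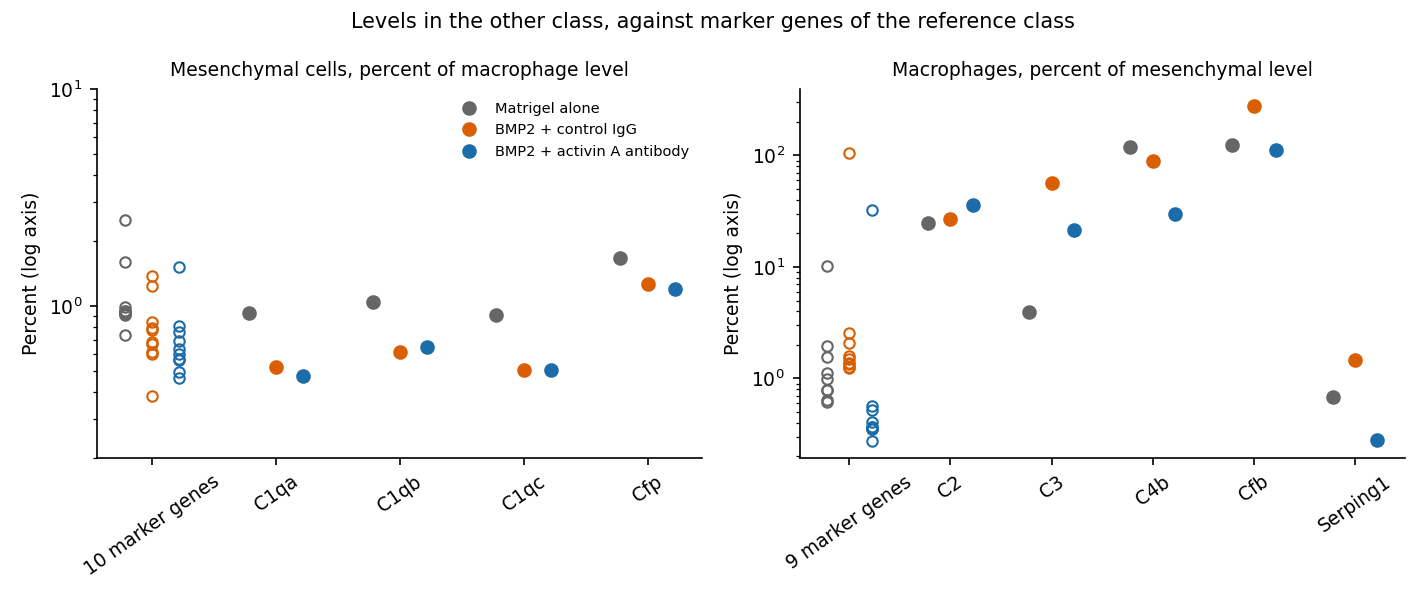
Level of each gene in 1 class as a percentage of its level in the other class of the same library (log axis), with marker genes of the reference class as open circles. C1qa, C1qb, C1qc and Cfp in mesenchymal cells (left) and Serping1 in macrophages (right) lie within the range of the markers. C2, C4b and Cfb in macrophages lie well above the marker medians of 0.981%, 1.51% and 0.367%. The highest marker there, Gsn, reaches 10.3%, 105% and 32.7%, and only Cfb lies above it in every library.

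In mesenchymal cells the complement genes were lower with BMP2 and IgG than with Matrigel alone. C3, the component on which all pathways converge, stood at 651 (639 to 663) CPM in the Matrigel library, 204 (198 to 209) in the IgG library and 606 (592 to 619) in the antibody library. The Matrigel and antibody levels were near each other, and the IgG level was 0.313 times that of Matrigel. C4b, which becomes part of the enzyme that cleaves C3, stood at 409 (400 to 418), 119 (115 to 123) and 242 (233 to 250) CPM. Its IgG level was lowest and its antibody level lay between the others. Cfb, the protease precursor of the alternative pathway, stood at 32.9 (30.4 to 35.6), 8.13 (7.09 to 9.28) and 18.7 (16.4 to 21.3) CPM. C2, the protease precursor of the classical pathway, stood at 35.6 (33.0 to 38.4), 14.9 (13.5 to 16.5) and 16.6 (14.5 to 19.0) CPM, and the IgG and antibody intervals overlapped.

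A member counted as higher or lower when the levels differed by 1.5-fold or more and 1 of the 2 sums held 10 UMIs. Between IgG and Matrigel 9 of 9 members were lower and 0 higher, where 21.1% of 14339 genes were lower and 16.6% higher. Leaving out the C1q chains and Cfp as background, 5 of 5 were lower. Cfb was 4.05-fold lower (3.47 to 4.75), C4b 3.45-fold (3.31 to 3.59), C3 3.20-fold (3.10 to 3.30), Serping1 2.5-fold (2.42 to 2.57) and C2 2.39-fold (2.11 to 2.71). The median log2 ratio of the 9 members was -1.32, beside -0.03 over all genes tested. That median includes the C1q chains and Cfp, read as background here.

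Between the antibody and IgG libraries 4 members were higher and 0 lower, where 9.90% of genes were higher and 12.7% lower. The ratio was 2.97 (2.87 to 3.08) for C3, 2.31 (1.91 to 2.78) for Cfb, 2.03 (1.94 to 2.14) for C4b and 1.56 (1.5 to 1.62) for Serping1. C2 had a ratio of 1.11 (0.939 to 1.32), inside the limits. Between the antibody and Matrigel libraries, 8 members were lower and 0 higher, where 22.1% of genes were lower and 11.6% higher. C3 was the exception, with a ratio of 0.930 (0.904 to 0.957). Of the 8, 4 were not background: C2 was 2.14-fold lower, Cfb 1.76-fold, C4b 1.69-fold and Serping1 1.60-fold. When every cell had equal weight, C4b, Cfb and Serping1 were no longer past the limit in that comparison, at ratios of 0.832, 0.745 and 0.856, and C3 stood at 1.26. The 3 comparisons use each library more than once and are not independent.

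The mesenchymal class differed in makeup between libraries. Cells with Pi16 and no Inhba made up 53.0%, 9.27% and 28.5% of the class, cells with Inhba and no Pi16 9.23%, 70.6% and 56.2%, and cells with neither 35.5%, 17.3% and 12.5%. Summed chondrocyte markers stood at 22.0, 3526 and 740 CPM. Pi16-detected cells gave 68.2%, 58.5% and 82.7% of the C3 UMIs of the class, but 44.0%, 7.05% and 16.7% of all its UMIs. For C4b they gave 69.4%, 49.3% and 85.1%, for Cfb 61.9%, 54.3% and 77.4%, for Serping1 68.9%, 34.5% and 67.7% and for C2 57.8%, 27.6% and 65.1%.

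Within each library, C2, C3, C4b, Cfb and Serping1 were lower in Inhba-detected than in Pi16-detected cells. C3 stood at 1009, 1691 and 2997 CPM in Pi16-detected cells and at 98.6, 39.4 and 84.2 CPM in Inhba-detected cells. The groups were far apart in every library, 10.2-fold (9.09 to 11.6) in Matrigel, 42.9-fold (39.8 to 46.3) in IgG and 35.6-fold (33.0 to 38.4) in antibody. C4b stood at 645, 830 and 1230 CPM in Pi16-detected cells and at 78.9, 33.3 and 23.8 CPM in Inhba-detected cells, 8.18-fold, 24.9-fold and 51.6-fold lower. Cfb was 5.75-fold, 27.9-fold and 25.6-fold lower, C2 3.42-fold, 6.26-fold and 11.9-fold lower, and Serping1 6.78-fold, 7.88-fold and 12.0-fold lower. Serping1 kept a level of 149, 160 and 136 CPM in Inhba-detected cells, so that its IgG and Matrigel intervals of 155 to 166 and 135 to 164 CPM overlapped.

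By count, 5 of 9 members were lower and 0 higher in Inhba-detected cells of the Matrigel library, beside 20.0% of genes lower and 15.8% higher. In the IgG library 5 were lower and 1 higher, beside 18.5% and 21.9%. In the antibody library 6 were lower and 1 higher, beside 20.4% and 27.3%. The calls beyond the 5 named members were C1qc, C1qa and Cfp, which rest on 6 to 31 UMIs in the Pi16-detected cells and are read as background. Cells with neither gene had intermediate C3 levels of 491, 431 and 376 CPM and C4b levels of 283, 279 and 146 CPM. Inhba-detected cells were deeper than Pi16-detected cells, with medians of 13791, 18700 and 26327 UMIs against 7909, 13084 and 12195 UMIs, and the part of depth in the difference between the subsets was not tested.

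Inside the Pi16-detected cells the order of the libraries was not that of the whole class. C2, C3, C4b, Cfb and Serping1 were all lowest there in the Matrigel library and highest in the antibody library, from 1050, 137 and 169 cells. The share of all genes with that order was not counted. Pi16 itself stood at 2003, 1073 and 2252 CPM in these cells, and the cells were deeper in the BMP2 libraries. The part of either in that order was not tested. By the 1.5-fold limit, C3, C4b, Cfb and Serping1 were higher in antibody than Matrigel, where 6.19% of genes were higher and 20.7% lower. C2 was not (ratio 1.38). Only C3 was higher in IgG than Matrigel, where 11.5% of genes were higher and 17.0% lower. C2 and C4b also passed the limit in IgG against Matrigel with equal weight per cell, at 1.69 and 1.503. So did C2 in antibody against Matrigel, at 1.55. C3 was 1.68 times its Matrigel level in the IgG library (1.61 to 1.75) and 2.97 times in the antibody library (2.88 to 3.07). Its antibody level was 1.77 times its IgG level (1.70 to 1.85). The share of Pi16-detected cells with a C3 UMI, after thinning each cell to 1000 UMIs, was 49.1% (46.0 to 52.2), 67.9% (59.4 to 75.6) and 83.3% (76.8 to 88.6), and 79.9%, 94.9% and 98.2% without thinning. The 10 cells with most C3 UMIs held 7.74%, 27.9% and 21.0% of them.

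C4b in Pi16-detected cells stood at 645 (628 to 663), 830 (789 to 872) and 1230 (1183 to 1278) CPM, 1.29 and 1.91 times the Matrigel level in the BMP2 libraries. Serping1 stood at 1008 (987 to 1030), 1262 (1212 to 1314) and 1631 (1577 to 1686) CPM, 1.25 and 1.62 times. These intervals did not overlap between libraries. Cfb stood at 46.4 (41.8 to 51.2), 62.6 (51.9 to 75) and 86.9 (74.8 to 100.3) CPM, and its IgG and antibody intervals just overlapped. C2 stood at 46.8 (42.3 to 51.7), 58.4 (48.1 to 70.4) and 64.8 (54.4 to 76.6) CPM, with overlapping IgG and antibody intervals. With equal weight for every cell, the C2 antibody to IgG ratio moved from 1.11 to 0.918. C3 in Inhba-detected cells had another order: 0.400 times the Matrigel level in the IgG library.

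**Figure D3:**
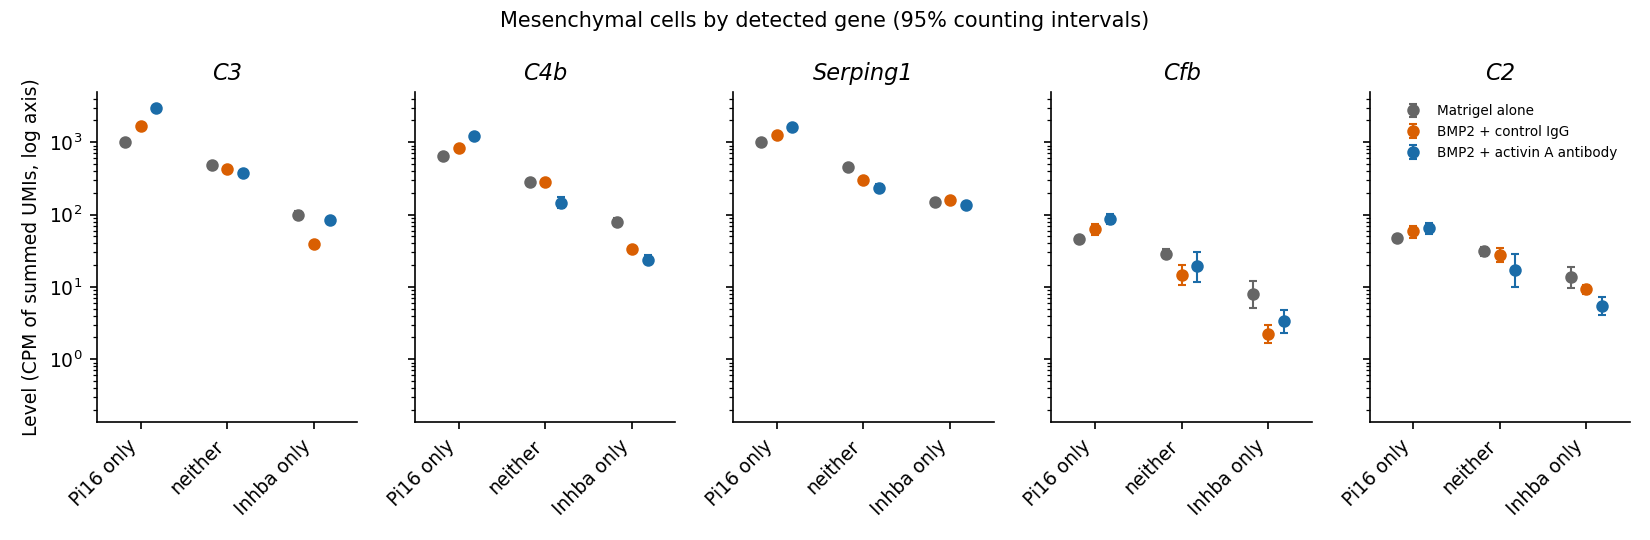
Level (CPM, log axis) of the 5 genes read in mesenchymal cells, in cells with Pi16 only, with neither gene and with Inhba only, with 1 point per library and 95% counting intervals. C3 in Pi16-detected cells stands at 1009, 1691 and 2997 CPM in the Matrigel, IgG and antibody libraries, and all 5 genes are lowest in Inhba-detected cells of each library.

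Cells with aggrecan (Acan), a cartilage proteoglycan, at 0.1% of UMIs or more numbered 0, 531 and 50. Their C3 level was 42.5 CPM (IgG) and 30.5 CPM (antibody), against 295 and 657 CPM in the other mesenchymal cells. C4b stood at 55.4 against 154 CPM and 24.8 against 261 CPM, and Serping1 at 117 against 338 CPM and 89.7 against 431 CPM. Cartilage-type cells thus had lower levels than the rest of the class. The rest held nearly all Pi16 UMIs, with Pi16 at 1.34 against 127 CPM (IgG) and 0 against 420 CPM (antibody). Inhba-detected cells of these libraries had C3 at 39.4 and 84.2 CPM, C4b at 33.3 and 23.8 CPM and Serping1 at 160 and 136 CPM. Beside these, cartilage-type cells had no lower C4b, lower C3 only in the antibody library and lower Serping1 in both. Their antibody levels rest on 32 C3 and 26 C4b UMIs.

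In macrophages C3 and C4b went opposite ways between the Matrigel and the BMP2 libraries. C3 stood at 25.5 (23.3 to 27.8), 116 (110 to 121) and 130 (125 to 135) CPM, so both BMP2 libraries were well above Matrigel. C4b stood at 492 (482 to 502), 106 (101 to 112) and 72.4 (68.5 to 76.5) CPM, so both were well below. The share of macrophages with a C3 UMI, thinned to 1000 UMIs, was 1.78% (1.44 to 2.17), 9.93% (8.88 to 11.1) and 10.6% (9.56 to 11.8), and 6.18%, 23.7% and 30.8% unthinned. In T cells the thinned share was 0% of 30 cells (up to 11.6%), 0.599% and 0.9%, at median depths of 1219, 2239 and 1862 UMIs. For C4b the thinned share in macrophages was 27.6% (26.4 to 28.8), 7.43% (6.52 to 8.43) and 5.21% (4.43 to 6.07).

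Between IgG and Matrigel macrophages 1 member was higher and 4 were lower, where 13.2% of 13149 genes were higher and 13.6% lower. C3 was 4.54 times higher (4.10 to 5.03). C4b was 4.63-fold lower (4.38 to 4.89), C2 2.18-fold (1.60 to 3.01), Cfb 1.78-fold (1.56 to 2.04) and Cfp 1.56-fold (1.51 to 1.61). The C1q chains were 1.26-fold, 1.45-fold and 1.45-fold lower in the order C1qa, C1qb, C1qc, short of the limit. The median log2 ratio of the 9 members was -0.54, beside -0.01 over all genes.

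Between the antibody and IgG macrophages 0 members were higher and 1 was lower, where 6.96% of genes were higher and 12.1% lower. That member was Serping1, from 20 against 53 UMIs and read as background, so that no member above background was called. C4b was 1.47-fold lower (1.36 to 1.58) and C2 had a ratio of 1.48 (1.06 to 2.09), both close to the limit. Between the antibody and Matrigel macrophages 1 member was higher and 5 were lower, where 12.2% and 19.0% of genes were. The count of 5 includes Serping1, read as background, from 20 against 85 UMIs. C3 was 5.09 times higher (4.62 to 5.62) and C4b 6.79-fold lower (6.40 to 7.20). Cfb was 1.90-fold lower, C1qb 1.60-fold and C1qc 1.58-fold, while C1qa at 1.41-fold and Cfp at 1.47-fold stayed inside the limit. With median-of-ratios scaling C1qb and C1qc were no longer called. That scaling moved the median of all genes by 0.119 (log2) in the antibody against Matrigel comparison of mesenchymal cells, and by 0.125 and 0.129 in the antibody comparisons of macrophages with IgG and Matrigel. Of the genes called, the share that was higher moved with it from 34.4% to 45.2%, from 36.5% to 50.4% and from 39.1% to 50.9%.

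Markers of other blood cells moved with the macrophage class: neutrophil markers summed to 38.9, 109 and 105 CPM, dendritic markers to 59.7, 143 and 74.5 CPM, and mast cell and basophil markers to 0.0518, 40.2 and 33.1 CPM. In the 4576, 2029 and 1932 macrophages without a UMI of any of these markers, C3 stood at 23.0, 94.9 and 119 CPM and C4b at 443, 96.2 and 65.8 CPM. Both kept their order of libraries in these cells. The C3 ratio of IgG to Matrigel was 4.13 and that of C4b 0.217. Summed over the 9 mesenchymal markers, macrophages had 397, 525 and 395 CPM, and the part of free mesenchymal RNA in their C3 was not tested.

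The C1q chains differed between libraries in how many macrophages held them. After thinning, all 3 chains were detected in 62.2%, 45.1% and 38.2% of macrophages and none in 23.0%, 33.2% and 41.8%, from 5331, 3002 and 2958 cells. The share with C1qa alone or with others was 72.0% (70.7 to 73.2), 59.8% (58.0 to 61.6) and 51.1% (49.3 to 52.9). Exactly 1 chain was detected in 4.46%, 8.19% and 7.98%. The median macrophage had 3447, 1769 and 881 CPM of C1qa by its own total, and the 90th percentile 7056, 7336 and 6204 CPM. The upper end of the distribution thus differed far less between libraries than the middle.

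Macrophages were also divided by 1 detected gene. Those with Lyve1, a hyaluronan receptor that marks resident macrophages, made up 20.7%, 5.94% and 16.1% of the class. In them 6, 7 and 5 of 9 members were higher, where 11.1%, 11.8% and 6.79% of genes were. The count of 7, in the IgG library, includes Serping1 from 15 against 38 UMIs, read as background in macrophages. C1qa was 1.81, 1.99 and 2.17 times higher and C4b 1.93 (1.85 to 2.01), 4.88 (4.34 to 5.47) and 3.49 (3.12 to 3.90) times higher. C4b stood at 769, 405 and 169 CPM in Lyve1-detected cells and at 399, 82.9 and 48.5 CPM in the others, so the order of the libraries was the same in both. C3 was not higher in Lyve1-detected cells in any library: its ratio was 0.983 (0.795 to 1.21) in Matrigel, 0.276 (0.191 to 0.388) in IgG and 0.478 (0.416 to 0.546) in antibody.

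Macrophages with Ccr2, a chemokine receptor of recruited monocytes, made up 61.8%, 64.2% and 49.7%. In them 6, 6 and 5 members were lower, where 14.7%, 12.0% and 11.8% of genes were. C1qa had ratios of 0.542, 0.510 and 0.427, and C4b of 0.463, 0.637 and 0.520. Cfp went the other way, at 1.34 (1.29 to 1.39), 1.34 (1.26 to 1.42) and 1.19 (1.13 to 1.24), inside the limit. Arginase 1 (Arg1), an enzyme of alternatively activated macrophages, was detected in 7.08%, 44.1% and 60.6%. C4b was lower in Arg1-detected cells at ratios of 0.523, 0.246 and 0.545, whereas the C1qb ratios were 0.929, 0.842 and 1.15. In cells with Top2a, a gene of cycling cells, C4b had ratios of 0.589, 0.363 and 0.510 and Cfb of 0.620, 0.296 and 0.585.

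**Figure D4:**
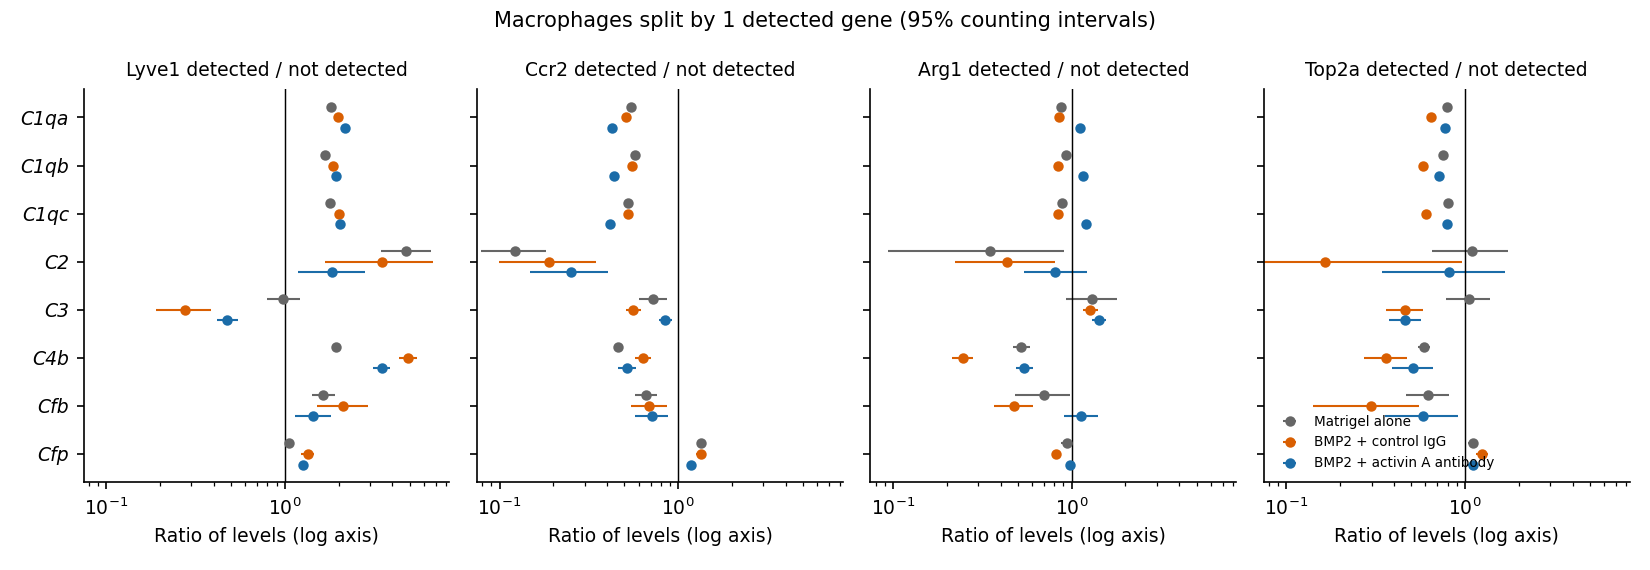
Ratio of the level in macrophages with a UMI of Lyve1, Ccr2, Arg1 or Top2a to that in macrophages without it (log axis), with 1 point per library and 95% counting intervals. The C1q chains and C4b lie right of 1 for Lyve1 and left of 1 for Ccr2 in all 3 libraries, and C3 lies left of 1 for Lyve1 in the IgG and antibody libraries (0.276 and 0.478).

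Of a wider list of 47 complement genes, 46 were in the count matrices, all but C4a. In mesenchymal cells 5 were higher and 16 lower of 30 measured between IgG and Matrigel, 10 higher and 2 lower of 27 between antibody and IgG, and 2 higher and 10 lower of 30 between antibody and Matrigel. Over all genes, 16.6% were higher and 21.1% lower in the first comparison, 9.90% and 12.7% in the second and 11.6% and 22.1% in the last. The wider list was not screened for background in either class, so free RNA of other cells can enter these counts. In mesenchymal cells the macrophage markers Tyrobp and Lyz2 themselves had ratios of 0.688 and 0.679 between IgG and Matrigel. Between antibody and Matrigel these were 0.518 and 0.586. The classical proteases C1s1 and C1ra stood at 428, 68.0 and 170 CPM and at 92.4, 18.9 and 44.6 CPM. Both were lowest in the IgG library and in between in the antibody library, as C4b was. Cd55, a membrane inhibitor that speeds the decay of C3-cleaving enzymes, stood at 199, 19.1 and 94.7 CPM. In Pi16-detected cells C1s1 stood at 648, 538 and 841 CPM and Cd55 at 328, 209 and 474 CPM, so both were lowest in the IgG library there too, unlike C3 and C4b. C1qbp, a mitochondrial protein that can bind C1q, had the reverse order in the whole class at 52.8, 95.8 and 86.2 CPM. Colec12, a scavenger receptor collectin, stood at 70.6, 107 and 87.9 CPM, and Cr1l, a membrane regulator, at 61.8, 51.1 and 49.6 CPM.

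In macrophages 5 of the list were higher and 12 lower of 26 between IgG and Matrigel, 7 higher and 1 lower of 25 between antibody and IgG, and 4 higher and 8 lower of 27 between antibody and Matrigel. Over all genes, 13.2% were higher and 13.6% lower in the first comparison, 6.96% and 12.1% in the second and 12.2% and 19.0% in the last. Ficolin A (Fcna), a recognition molecule of the lectin pathway, stood at 136, 27.3 and 69.2 CPM. The receptor for the C3 fragment C3a (C3ar1) stood at 254, 382 and 427 CPM, and that for C5a (C5ar1) at 150, 77.2 and 138 CPM. C3ar1 thus had its lowest level in the Matrigel library, as C3 did, and C5ar1 in the IgG library. The integrin chains of complement receptors Itgam and Itgb2 stood at 380, 376 and 519 CPM and at 330, 338 and 475 CPM, and Itgax at 45.9, 86.8 and 68.8 CPM. Cd93, once described as a C1q receptor, stood at 40.7, 74.9 and 64.8 CPM.

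**Figure D5:**
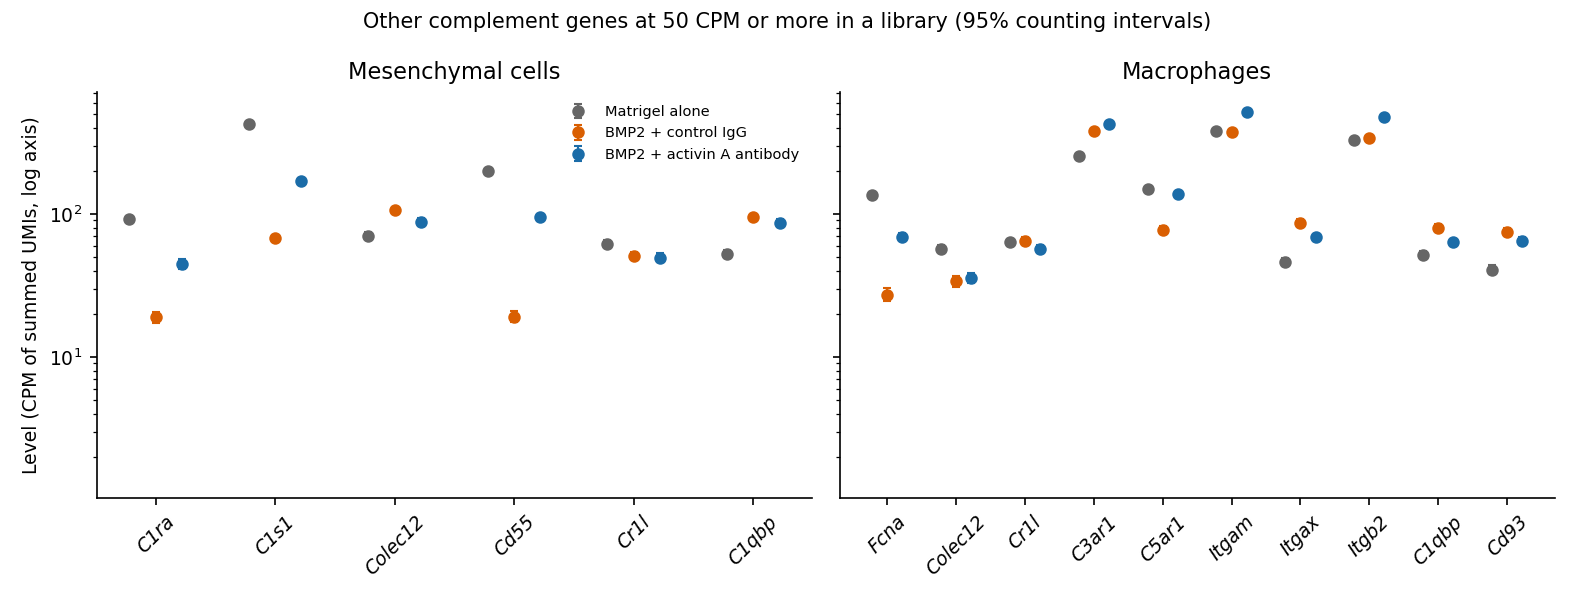
Level (CPM, log axis) of other complement genes that reached 50 CPM in a library of the class, with 1 point per library and 95% counting intervals. C1ra, C1s1 and Cd55 are lowest in the IgG library in mesenchymal cells (18.9, 68.0 and 19.1 CPM), and Fcna is lowest there in macrophages (27.3 CPM).

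Across 15 class and library points with 50 cells or more, Pearson correlations of log2(CPM + 1) placed 8 of the 9 members in 2 sets. The C1q chains and Cfp had r of 0.963 to 0.996 with each other, and C2, C3, C4b and Cfb had r of 0.812 to 0.935. The r of the C1q chains and Cfp mainly set macrophages against classes where these genes are low. The same holds for the similar genes listed for them. Likeness within macrophages is not shown by it, and there C1qa and Cfp went opposite ways with Ccr2 detection. Serping1 had r of 0.877 with C2, 0.820 with C3, 0.665 with C4b and 0.519 with Cfb, and from -0.668 to -0.586 with Cfp and the C1q chains. Points of 1 library share its preparation, so these are descriptions with no test. The genes with the most similar pattern were Fcgr3, Clec12a and Lyz2 for C1qa, Clec4b1, Cbr2 and Wfdc17 for C1qb and Slamf9, Lyz2 and Pik3r6 for C1qc, with r of 0.985 to 0.992. For Cfp they were C5ar1, Clec12a and Igsf6 (0.984 to 0.990), and for Serping1 Islr, Adamtsl1 and Cpxm1 (0.988 to 0.991). For C3 they were C1ra, Gstt1 and Ifi205 (0.932 to 0.946), for C4b Lgi4, Phf11d and Ggt5 (0.947 to 0.964), for C2 Esr1, Ctdsp2 and C1ra (0.958 to 0.972) and for Cfb Npr1, Lpl and Cpq (0.953 to 0.958).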

How the data were processed

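Droplet libraries were made with the 10x 3' v3 kit, as the labels' protocols state, and processed with Cell Ranger 3.0.2 on mm10, per the submitters' processing notes. The sources used here do not name the annotation release or the cell-calling settings. The deposited values are counts of UMIs per gene and barcode, not normalized, per the file headers and the values.

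Cells were kept with at least 300 genes, 500 UMIs and at most 15% mitochondrial UMIs, which removed 26, 107 and 146 barcodes. Scrublet (scanpy 1.11.5, seed 1) marked 2, 3 and 4 cells, under 0.5%, so its top scores were dropped at 0.8% per 1000 cells (681, 284 and 285 cells). UMIs were summed per class and library and expressed as CPM. Levels have exact Poisson, ratios exact conditional binomial and shares exact Clopper-Pearson intervals. Shares were compared after thinning to 1000 UMIs. A count of 0 allows up to 3 counts. With 1 library per group no test between groups was run and no p-value is given. The code was tested on simulated data.

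The members and gene lists were chosen with earlier results of these data known. All 9 members are named, with listed complement genes that reached 50 CPM in a library, except 1 that is not reported here, and the 3 genes most similar to each member. T cells and B cells were chosen by their receptor genes. Gene coordinates and strands came from GENCODE vM21 and promoter sequences from RefSeq. Alternatives covered the class limits, doublets, mitochondrial share, scaling, cell weighting, fold and minimum count.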

Additional observations from a re-analysis of the deposited data

Results flagged for a closer look

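Several members went opposite ways in 2 cell populations under the same contrast. With 1 library per group these differences were not tested. C3, IgG against Matrigel, had a ratio of 0.313 in mesenchymal cells and 4.54 in macrophages. C3 in the same contrast had a ratio of 1.68 in Pi16-detected and 0.400 in Inhba-detected mesenchymal cells. C4b, antibody against Matrigel, had a ratio of 1.91 in Pi16-detected and 0.302 in Inhba-detected cells, and Cfb 1.87 and 0.420. Serping1, antibody against IgG, had a ratio of 1.56 in mesenchymal cells and 0.298 in macrophages, where its level is read as background.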

How the results depend on the processing

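No paired analysis was possible because each group had 1 library. Of 198 recomputed counts of members, 167 stayed within 1.5 times the count as reported. These include counts of 0 that stayed 0, and the setting that needed both Csf1r and Adgre1, which left mesenchymal cells unchanged. Of 1464 recomputed gene ratios, 1172 stayed inside the counting interval of the reported ratio. Only ratios past the limit could be scored as turned in direction, and 2 were. Ratios inside the limit also crossed 1. In mesenchymal cells C3, antibody against Matrigel, moved from 0.930 to 1.26, and C1qa, antibody against IgG, from 0.810 to 1.38. The ratios of C2, C3, C4b, Cfb and Serping1 between Inhba-detected and Pi16-detected cells stayed below 0.358 under every alternative run in each library.

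In mesenchymal cells, the members lower in IgG than Matrigel numbered 5 without those read as background. The number lower in antibody than IgG was 1 in cells with no UMI of a macrophage marker. The number lower in antibody than Matrigel was 4 with equal weight per cell, 5 at a fold of 2 and 4 without background members.

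In macrophages, those lower in IgG than Matrigel numbered 2 at a fold of 2. For antibody against IgG, 1 was higher when both Csf1r and Adgre1 were needed, with doublets kept, at 5% mitochondrial UMIs, with size factors and in cells free of other blood cell markers. The number lower there was 2 with both receptors, with doublets kept and with equal weight per cell, and 0 without background members. The number lower in antibody than Matrigel was 3 with both receptors, 3 with size factors and 2 at a fold of 2. The alternative without other blood cell markers and the one without background members were chosen after seeing the data.

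Between Inhba-detected and Pi16-detected cells of the Matrigel library, 9 were lower with doublets kept. The number higher in the IgG library was 3 at collagen shares of 0.5% and 2% and with 2 UMIs needed, 2 at 5% mitochondrial UMIs and with equal weight per cell, and 0 with doublets kept or without background members. The number higher in the antibody library was 4 at a collagen share of 2%, and 0 with doublets kept, with equal weight per cell, at a fold of 2 and without background members. There the C1qa ratio turned to 1.97 at the 2% collagen share and the Cfp ratio to 0.309 with doublets kept. Beyond what the settings change by construction, the cause was not tested. Depth limits C2, Cfb and all background members most.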

Other observations

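Cells in none of the named classes numbered 947, 892 and 726. Their C3 level was 91.0, 162 and 90.8 CPM, and 10 cells held 78.0%, 57.5% and 48.9% of those UMIs. C4b stood at 171, 111 and 32.8 CPM, the same order of libraries as in macrophages. C1qa stood at 676, 464 and 330 CPM. The B cells of the antibody library, 509 in number, had 7.18 CPM of C3, 2.39 CPM of C4b and 25.1 CPM of C1qa.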
